A study of Caenorhabditis elegans with 12 samples.

Results

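Gonads of *Caenorhabditis elegans* hold the germline, in which RNA made by mitotic and meiotic nuclei is stored for the oocyte and early embryo. Many worm genes give rise to more than 1 transcript, through alternative promoters, splice sites or polyadenylation sites, and the transcript that leads a gene can set which protein or which untranslated region is present. The results below concern 552 genes whose loci carry only their own gene name, that have 3 or more transcript models, and whose summed level averaged at least 10 RPKM (reads scaled by kilobases of transcript and by library size). They were chosen by those model numbers and levels from 40961 named genes, and together hold 2200 of the 49201 transcripts in the tables. The share of a transcript is its RPKM as a percentage of the summed RPKM of its gene in the same library, and the dominant transcript of a gene is the one with the highest mean share over 12 libraries. Because RPKM is already divided by length, a share compares models of different length on one scale.

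The libraries were made from needle-dissected gonads of F3 adults kept at 20 °C. The P0 ancestors had been exposed for 48 h to 100 µM bisphenol A (BPA, a plasticizer), to 0.1% DMSO (a solvent), or to water, with 4 libraries for each exposure. A DMSO content is given for the DMSO exposure alone. Whether the BPA was given in solvent is thus not known here, and the part of solvent in BPA against water was not tested. The labels name no genotype or strain. Nor do they state that the 4 libraries of an exposure are separate cultures, and the spread behind every p-value may thus be technical. Summed germline and oocyte markers were high in every library (germline 2345 to 2869 RPKM after BPA, 2501 to 2788 after DMSO and 1552 to 3179 after water). Of the markers of other cells, summed intestinal markers reached 46.8 RPKM after BPA, 397 after DMSO and 102 after water, muscle markers 334, 198 and 412 RPKM, sperm markers 20.0, 29.9 and 105 RPKM, and somatic gonad markers 148, 104.1 and 111 RPKM. Hypodermal and neuronal markers reached no more than 26.6 and 26.2 RPKM in any library. The part of these cells in the shares was not tested. In bulk samples, fewer cells of a type and less RNA per cell cannot be told apart.

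Of the 552 genes, 302 had 3 models, 128 had 4 and 122 had 5 or more. The largest number was 21, in pqn-87. By name, 543 genes matched the Ensembl release 115 annotation, which lists 530 of them as protein-coding, 9 as pseudogenes, 3 as non-coding RNA genes and 1 as a ribosomal RNA gene. They lay on chromosomes I (131), II (89), III (129), IV (94), V (76) and X (24). The genes made up 12.9% of all named genes at 10 RPKM or more, and 18.5% of the 130 such genes on X. For 414 genes the tables held more models than the annotation has transcripts, so the models are given by their identifiers in the files and were not equated with annotated isoforms. At the level limit, F56C11.3 averaged 10.0 RPKM, sma-1, a spectrin, 10.1 RPKM and Y102E9.5 10.2 RPKM just inside it. M04F3.2, Y47H9C.17 and seld-1 lay just outside, at 9.93, 9.97 and 9.98 RPKM.

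Of the 2200 transcripts, 1405 had a mean share of at least 5%, 331 had under 1%, and 131, in 97 genes, were listed at 0 in all 12 libraries. A single transcript passed 5% in 76 genes, a pair of transcripts did so in 217 genes, and 3 or more did so in 259. The dominant transcript held a median of 72.0% of its gene (quartiles 55.3% and 87.7%). It held at least 90% in 108 genes, 50% to 90% in 350 and under 50% in 94.

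Dominance on average did not mean dominance in each gonad sample. The dominant transcript had the highest value in all 12 libraries in 198 genes (35.9%), in 9 to 11 libraries in 195 and in 8 or fewer in 159. In 148 genes at least 3 different transcripts led in some library. F58G11.2 had 6 different leading transcripts among its 7 models, and D1005.9 had a dominant transcript by mean share that led in no library (both named after their values were seen). In 148 genes (26.8%) the share of the dominant transcript ran from 10% or less in some library to 90% or more in another. Such genes made up 20.0% of the 230 genes that averaged at least 50 RPKM and 31.7% of the 322 genes below that level.

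**Figure D1:**
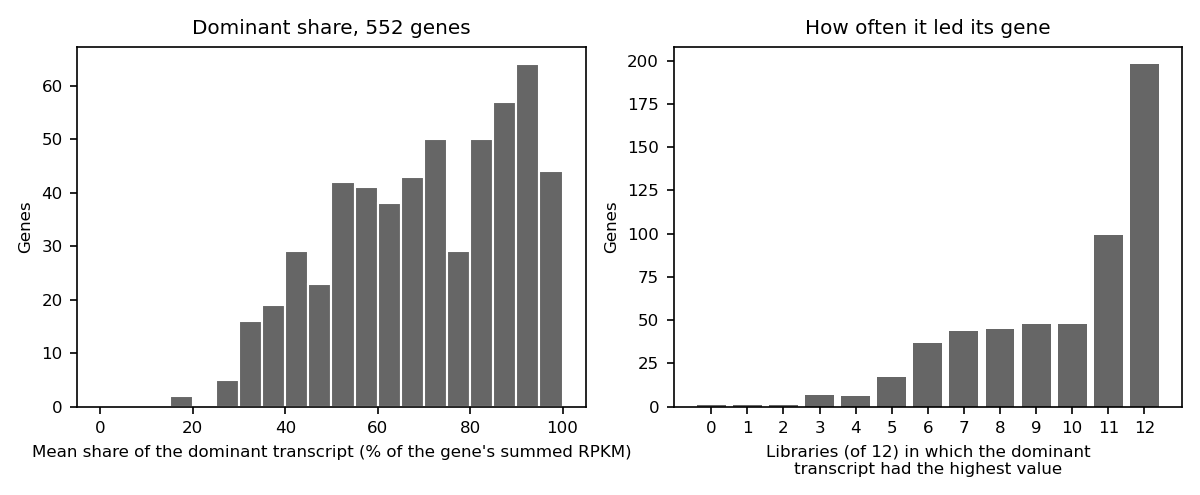
Left, histogram of the mean share of the dominant transcript over 12 libraries (x axis, percent of the gene's summed RPKM) in 552 genes (y axis, number of genes). Right, number of genes (y axis) by the number of libraries in which that transcript had the highest value (x axis). The median share is 72.0%, and 198 genes stand at 12 libraries.

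The summed level of a gene varied less than the level of its dominant transcript. The coefficient of variation over 12 libraries had a median of 36.0% for the dominant transcript and 19.7% for the sum, and 485 of 552 genes had the larger value for the transcript. In the 148 genes whose dominant share ran from 10% or less to 90% or more, the medians were 63.1% for the transcript and 19.5% for the sum. In the other 404 genes they were 29.0% and 19.8%. The medians for the sum thus lay close together in these sets of genes. The sets were split by the range of the dominant share, so a larger spread of the transcript in the first set follows from the split.

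**Figure D2:**
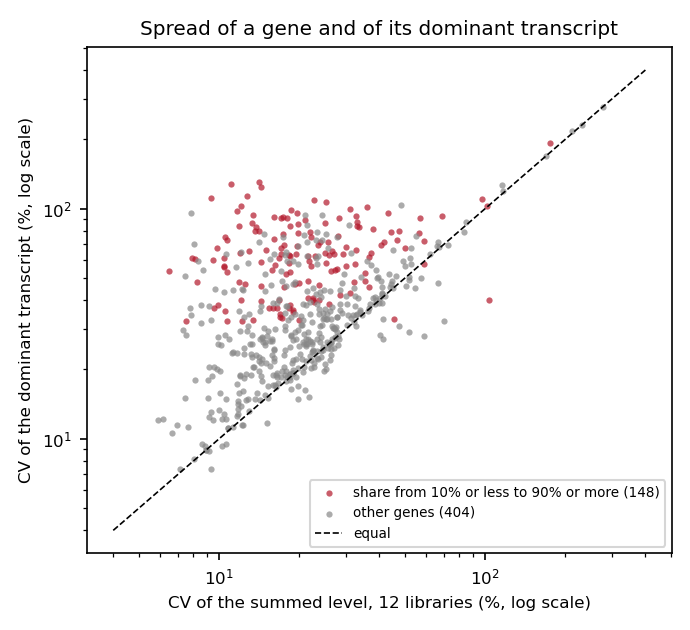
Coefficient of variation over 12 libraries of the dominant transcript (y axis, percent, log scale) against that of the summed level of its gene (x axis, percent, log scale), 1 point per gene. The 148 genes whose dominant share ran from 10% or less to 90% or more are in red, and 485 of 552 points lie above the dashed line of equality.

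Cytoskeletal and polarity genes were among those whose leading model changed. nmy-2, the non-muscle myosin II heavy chain of cytokinesis and cortical flow, had summed levels of 202, 185, 201 and 187 RPKM in BPA 1 to 4, 217, 154, 185 and 194 RPKM in DMSO 1 to 4, and 121, 189, 199 and 198 RPKM in water 1 to 4. Its transcript TCONS_00003889 had 202, 0, 201 and 82.4 RPKM in the BPA libraries, 0, 154, 185 and 194 RPKM in the DMSO libraries, and 121, 189, 0 and 0 RPKM in the water libraries. In each library where TCONS_00003889 was listed at 0, another nmy-2 model held nearly all of the level: TCONS_00003888 in BPA 2, water 3 and water 4, at 185, 199 and 198 RPKM, and TCONS_00003887 in DMSO 1, at 217 RPKM. BPA 4 was divided, with 105 RPKM for TCONS_00003887. In the list of 85 actin, myosin, tubulin and polarity genes, 12 belonged to the 552. Of these 12, the dominant transcript led in all libraries in 3, beside 35.9% of the 552. Its share ran from 10% or less to 90% or more in 6 of the 12, beside 26.8% of the 552. These counts are small and were not tested.

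par-3, a PDZ scaffold of anterior polarity, had 9 models. Its TCONS_00012072 had 86.5, 0, 0 and 6.28 RPKM in the BPA libraries, 7.09, 8.71, 6.47 and 71.2 RPKM in the DMSO libraries, and 42.0, 5.66, 74.1 and 59.3 RPKM in the water libraries. The libraries low in TCONS_00012072 were led by another model, TCONS_00012065, which had 26.8, 43.3 and 22.5 RPKM in BPA 2 to 4, 37.99, 22.0 and 45.9 RPKM in DMSO 1 to 3, and 33.3 RPKM in water 2. ani-1, anillin of the contractile ring, had TCONS_00015770 listed at 0 in DMSO 2 and water 3 only, where TCONS_00015769 had 111 and 113 RPKM. nsf-1, the ATPase that takes SNARE complexes apart in membrane fusion, had TCONS_00003860 at 57.0, 0, 0 and 47.9 RPKM in the BPA libraries, at 0, 46.1, 53.5 and 56.1 RPKM in the DMSO libraries and at 0 in all 4 water libraries. Its summed level stayed between 46.1 and 60.1 RPKM in 11 libraries and was 32.1 RPKM in water 1.

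**Figure D3:**
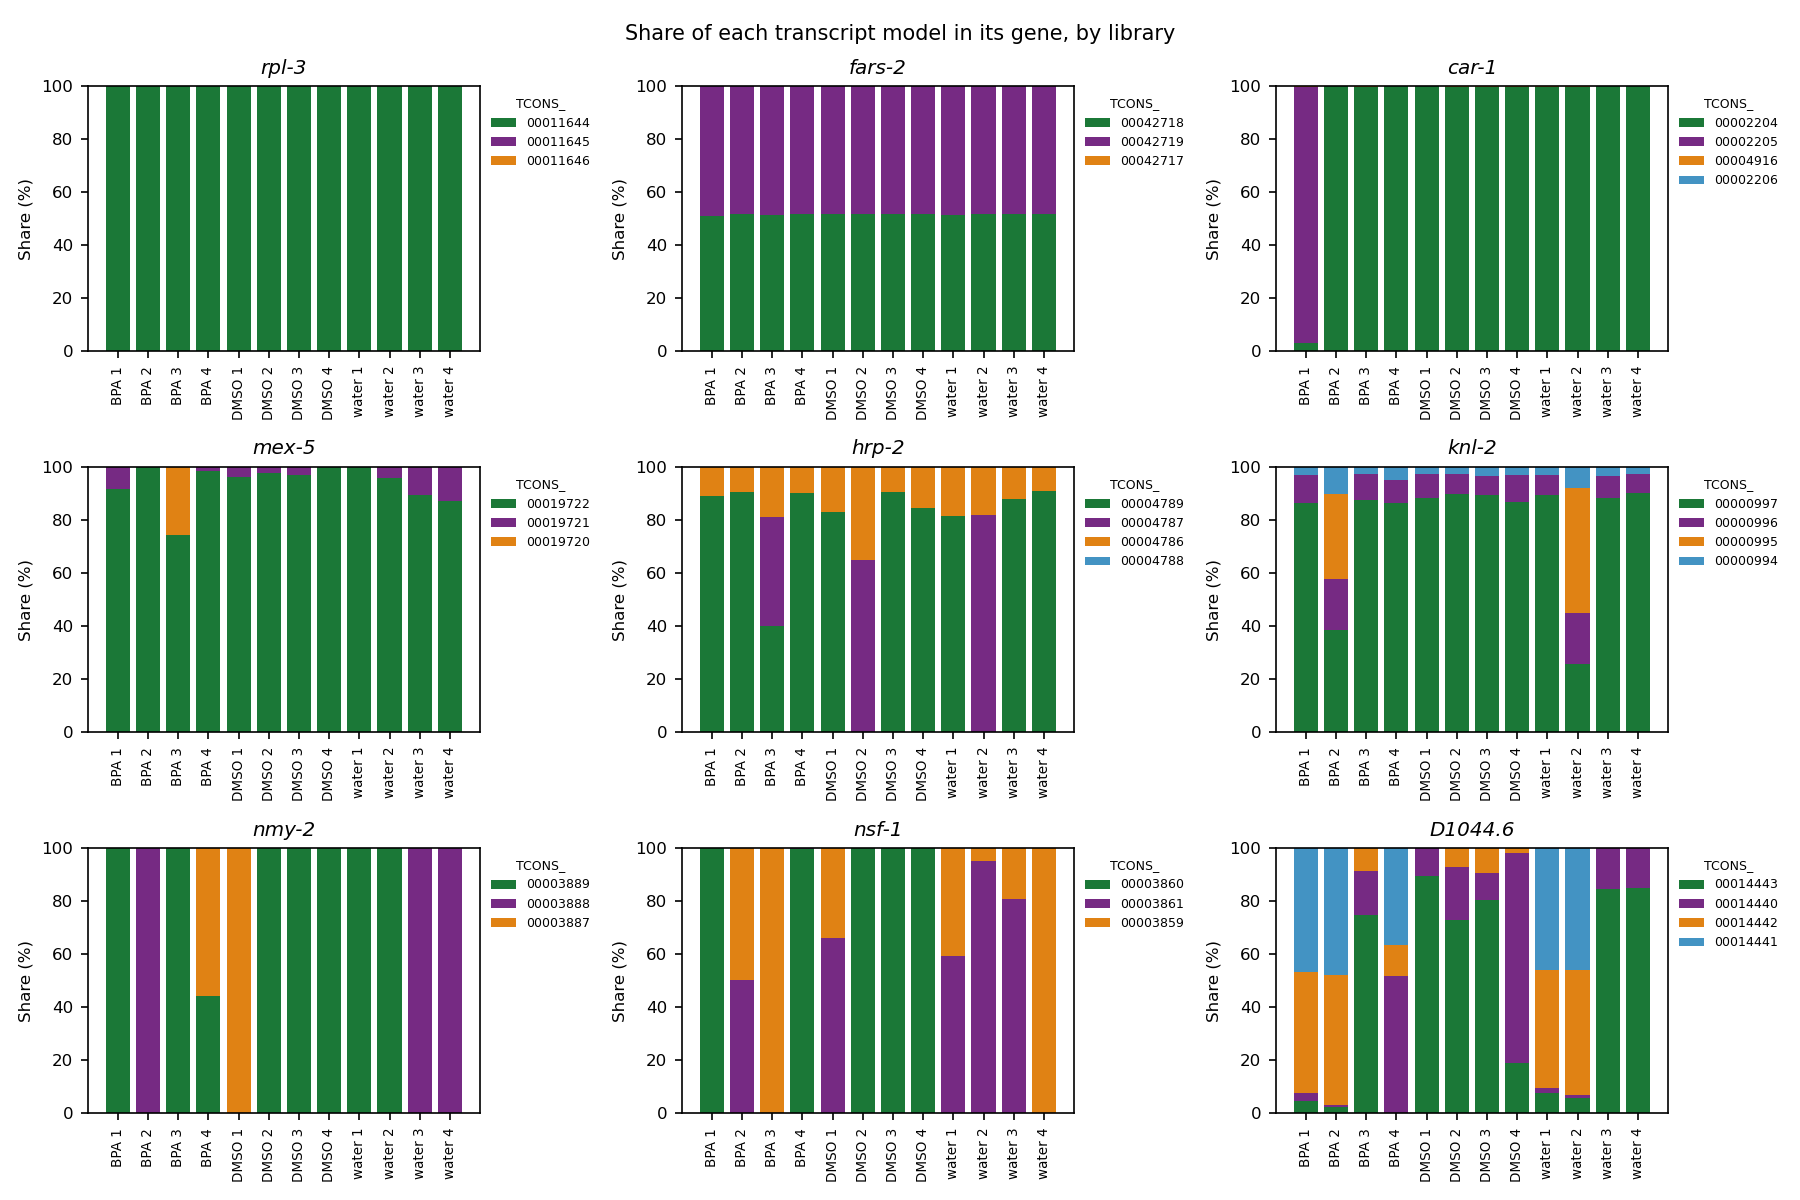
Share of each transcript model in its gene (y axis, percent) in the BPA, DMSO and water libraries (x axis), for 9 genes; colours mark the models named beside each panel. rpl-3 and fars-2 keep the same shares in all libraries, car-1 and mex-5 differ in BPA 1 and BPA 3, and nmy-2, nsf-1 and D1044.6 change their leading model several times.

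In several further genes of different functional lists 1 or a few libraries stood apart. car-1, an RNA-binding protein of germ granules and translational control, had TCONS_00002204 at 829, 710 and 766 RPKM in BPA 2 to 4, at 630 to 859 RPKM in the DMSO libraries and at 589 to 801 RPKM in the water libraries. In BPA 1 that model had 21.6 RPKM and TCONS_00002205, listed at 0 in the other 11 libraries, had 714 RPKM. mex-5, a zinc-finger protein that sets up anterior-posterior differences in the zygote, had TCONS_00019720 at 61.3 RPKM in BPA 3 and at no more than 0.0198 RPKM elsewhere. Its dominant TCONS_00019722 led in all 12 libraries. knl-2, which is needed to load centromeric histone, had TCONS_00000995 at 91.5 RPKM in BPA 2, at 221 RPKM in water 2 and at 0 in the other 10. hrp-2, an hnRNP splicing regulator, had TCONS_00004787 in 3 libraries, with 44.1 RPKM (BPA 3), 70.7 RPKM (DMSO 2) and 85.1 RPKM (water 2), and at no more than 0.0304 RPKM elsewhere. pms-2, a mismatch repair protein, had TCONS_00041041 at 187 RPKM in water 2 and at 0 in the other 11. lpin-1, the phosphatidate phosphatase lipin, had TCONS_00041579 at 42.0 and 48.1 RPKM in BPA 1 and BPA 2 and at no more than 0.00831 RPKM in the other 10. No exposure held such a model in all of its 4 libraries in any of these genes.

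Among the functional lists, the dominant transcript led in all 12 libraries in 7 of 10 translation genes, 5 of 10 cell cycle genes, 5 of 9 germline RNA regulators, 4 of 8 signalling genes, 4 of 10 protein turnover genes, 3 of 6 splicing factors, 3 of 8 genes known for alternative isoforms and 2 of 10 chromatin genes, beside 35.9% of the 552. A dominant share from 10% or less to 90% or more was found in 1 of 10 translation genes, 1 of 10 cell cycle genes, 3 of 9 germline RNA regulators, 1 of 8 signalling genes, 2 of 10 protein turnover genes, 3 of 6 splicing factors, 4 of 8 genes known for alternative isoforms and 3 of 10 chromatin genes, beside 26.8%. These counts are small and carry no test. Of 8 genes of apoptosis and DNA repair, 2 kept 1 leader throughout and 2 ran over that range; of 8 membrane traffic genes these numbers were 2 and 3, of 5 somatic genes 2 and 3, of 3 metabolic genes 2 and 1, and of 3 meiotic genes 2 and 0.

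Shares varied little between libraries in rpl-3, eef-1G and fars-2, whereas pab-1 had 1 library apart. rpl-3, a protein of the large ribosomal subunit, had 1 model at 100% in all 12 libraries while its summed level ranged from 1506 to 1989.6 RPKM in the BPA libraries, 1230.1 to 2069 RPKM in the DMSO libraries and 624 to 1636 RPKM in the water libraries. eef-1G, the gamma subunit of elongation factor 1, averaged 15282 RPKM, the highest of the 552. It had 4084 RPKM in water 1 and 13268 to 20572 RPKM in the other libraries. Its TCONS_00036584 held 91.9% to 97.2%. pab-1, the cytoplasmic poly(A)-binding protein, averaged 5945 RPKM, with 1307 RPKM in water 1 and 4858 to 11034 RPKM in the other libraries. Its TCONS_00004491 led in every library, with 66.4% in DMSO 3 as its lowest share, where TCONS_00004489 had 2077 RPKM against at most 421 RPKM elsewhere. fars-2, a phenylalanyl-tRNA synthetase, divided its level between TCONS_00042718 and TCONS_00042719, and the share of the first was 51.6% ± 0.211 (SD, n = 12). glh-2, a Vasa-like RNA helicase of P granules, had TCONS_00001008 at 42.6% ± 4.44 (SD, n = 12), and that model led in all libraries but DMSO 3. sas-5, a centriole assembly protein, had a dominant share of 96.1% ± 1.01, and cyb-3, cyclin B3, of 92.9% ± 6.37 (SD, n = 12 each).

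The 552 genes were set beside other classes at the same level limit. With 3 models each, the dominant transcript led in all libraries in 44.0% of 302 single-name genes and in 32.2% of 199 genes whose locus carries several names. Its share ran from 10% or less to 90% or more in 24.8% and 31.7%. The median dominant share was 80.9% in those single-name genes and 71.5% in those at shared loci. Among 834 single-name genes with 2 models, the dominant transcript led throughout in 63.9%, and 15.9% had the wide range. No test was made of these differences, since the classes were set by the models themselves.

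Libraries differed in how many of the 552 genes were led by a transcript other than the dominant one. The shares of genes so led were 15.4% to 18.9% in the BPA libraries, 15.2% to 18.5% in the DMSO libraries, and 25.6%, 16.5%, 21.8% and 17.6% in water 1 to 4. The highest shares, 141 genes in water 1 and 120 in water 3, belonged to the libraries with the lowest estimated depth, 14.6 M and 14.0 M reads (M, mega), while the BPA libraries had 18.2 M to 20.9 M and the DMSO libraries 16.9 M to 33.1 M. Transcripts listed at 0 made up 38.4% of the 2200 in water 1 and 35.2% in water 3, against 27.0% in water 2 (26.2 M reads) and 25.5% in DMSO 3 (33.1 M reads). The part of depth in the shares was not tested. A setting without water 1 and water 3 was added after the data were seen. In it, 42.4% of the genes were led by their dominant transcript in all remaining libraries. The median dominant share was 73.7%, and the share ran from 10% or less to 90% or more in 21.9%. With fewer libraries a lead in all of them is easier to reach and a wide range harder, whichever are left out. Leaving out any 1 library gave 36.4% to 40.6% and 23.9% to 26.45%, beside 35.9% and 26.8% with all libraries.

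**Figure D4:**
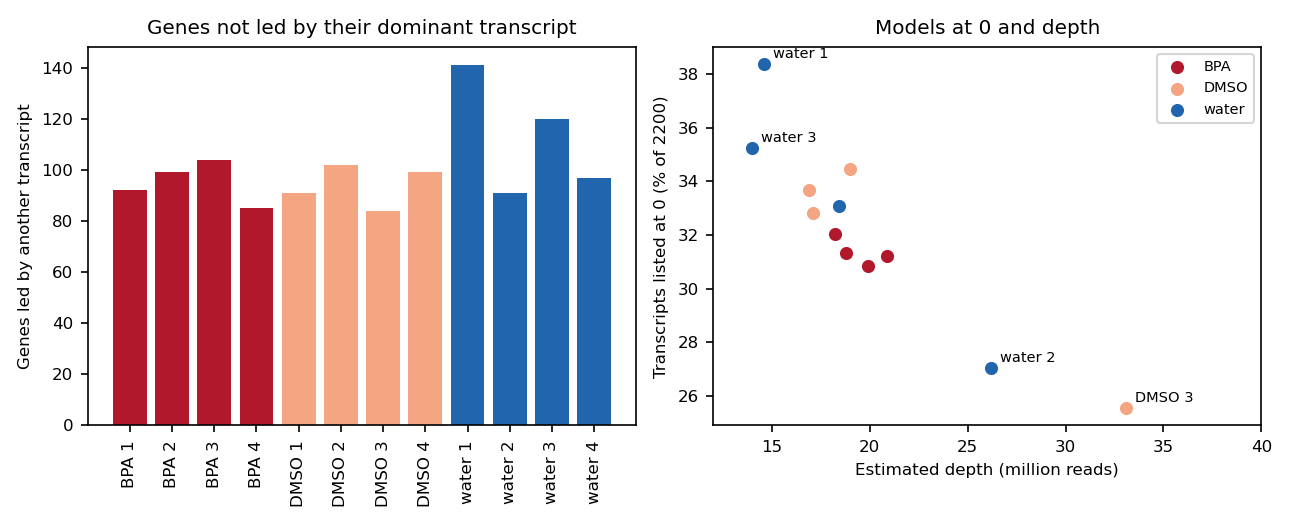
Left, number of the 552 genes led by a transcript other than their dominant one (y axis) in each BPA, DMSO and water library (x axis). Right, percentage of the 2200 transcripts listed at 0 (y axis) against estimated depth in M reads (x axis), 1 point per library; water 1 and water 3 have the lowest depths and the most transcripts at 0, and DMSO 3 and water 2 the reverse.

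Pairs of libraries had the same leading transcript in a median of 74.2% of the genes (66 pairs). The median was 75.7% within BPA, 74.95% within DMSO and 69.6% within water (6 pairs each), and 73.8% between exposures (48 pairs). The lowest pair was BPA 1 with water 1, at 66.4%, and the highest DMSO 3 with water 2, at 80.6%. Pairs of different exposure with the same sample number had a median of 74.5% (12 pairs), and those with different numbers 73.8% (36 pairs).

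Shares were tested in all named genes of at least 10 RPKM with 2 or more models, on the log2 ratio of a transcript to the rest of its gene with 1 RPKM added to each (limma, all 12 libraries in 1 fit, two-sided, Benjamini-Hochberg adjustment). This gave 4309 transcripts, of which 1399 belong to 550 of the 552 genes. Between gonads descended from BPA-exposed and DMSO-exposed ancestors, 0 of the 1399 were called at an adjusted p under 0.05, as were 0.0% of all 4309. Unadjusted p-values lay under 0.05 for 47 of the 1399 (3.36%) and for 143 of all 4309 (3.32%), and the smallest adjusted p from limma among the 552 genes was 1.00. The median half-width of the 95% interval was 2.40 on the log2 scale, so moderate shifts in a typical transcript could not be detected. The absolute difference in mean share had a median of 6.17 percentage points and exceeded 20 points for 225 transcripts.

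The shares of 34 transcripts in 25 of these genes, each with a share in every library compared, did not overlap between BPA and DMSO libraries, 2.43% of the 1399 beside 2.27% of all 4309. Y47G6A.14 was the 1 gene of the 552 in which every BPA library was led by one transcript and every DMSO library by another, beside 0.144% of the 2078 genes tested; for BPA against water and DMSO against water none of the 552 did so, beside 0.0% and 0.0481%. Its TCONS_00002975 had 20.8, 20.5, 19.7 and 21.5 RPKM in BPA 1 to 4, was listed at 0 in all 4 DMSO libraries, and had 18.6 RPKM in water 2 and 0 in the other water libraries. TCONS_00002974 had 2.92, 0, 0.0246 and 2.39 RPKM in the BPA libraries, 21.6, 23.4, 19.3 and 20.2 RPKM in the DMSO libraries, and 16.8, 0, 17.6 and 0.0115 RPKM in the water libraries. The BPA and DMSO libraries did not overlap in either transcript, whereas water libraries were found on both sides. In water 4 a further model held the level, and the summed level was similar throughout, at 19.7 to 23.9 RPKM after BPA, 19.3 to 23.4 RPKM after DMSO and 16.8 to 22.6 RPKM after water. The log2 ratio of TCONS_00002975 was higher by 7.95 ± 1.69 (SE) after BPA than after DMSO, with an adjusted p of 1.00 in limma. The exact permutation test gave p = 0.0286, the smallest that 4 against 4 libraries can give. Every transcript without overlap gets that value, so it only restates the lack of overlap for which this gene is described. The adjusted p in limma was 0.00117 when BPA and DMSO libraries alone were fitted and 0.000171 without water 2, the 1 water library with this transcript. It was 0.863, 0.897 and 0.596 without water 1, 3 or 4, so with 1 water library left out the call of TCONS_00002975 turned on water 2. Without both water 1 and water 3, a setting added after the data were seen, TCONS_00002974 was called (adjusted p = 0.000789 in limma). TCONS_00002975 was not called in that setting (adjusted p = 0.743 in limma).

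Other genes had transcripts on 1 side of the BPA and DMSO comparison. scrm-4, of the phospholipid scramblase family, had TCONS_00004716 listed at 0 in all 4 BPA libraries, at 14.2, 7.06, 13.9 and 14.7 RPKM in the DMSO libraries and at 33.4, 20.3, 0 and 0.163 RPKM in the water libraries (adjusted p = 1.00 in limma, 0.0241 with BPA and DMSO libraries alone). T23E1.2 had TCONS_00016395 at 99.1% ± 0.330 after BPA, 66.5% ± 24.5 after DMSO and 92.2% ± 9.33 after water (SD, n = 4 each; adjusted p = 1.00 for BPA against DMSO in limma). DMSO 1 stood with the BPA libraries at 98.1%, and the remaining DMSO libraries had 45.1% to 73.4%. In Y48G8AL.10, TCONS_00002691 had 21.7, 19.7 and 22.6 RPKM in DMSO 1 to 3 and was listed at 0 in DMSO 4 and in all BPA and water libraries. The summed level of Y48G8AL.10 was not steady, at 22.2, 20.2, 25.1 and 64.1 RPKM in DMSO 1 to 4. It was 21.6 to 65.6 RPKM in the BPA libraries and 19.9 to 57.1 RPKM in the water libraries. jmjd-1.2, a histone demethylase of the Jumonji family, had TCONS_00016666 at 35.4%, 96.1%, 87.0% and 85.8% in BPA 1 to 4, 99.8%, 99.8%, 90.5% and 99.8% in the DMSO libraries and 99.3%, 99.7%, 99.9% and 92.5% in the water libraries. BPA 3 and BPA 4 lay below every DMSO library and BPA 1 far below them, while BPA 2 lay among them (log2 ratio lower by 3.32 ± 1.14, SE; adjusted p = 1.00 in limma).

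Several further genes without overlap were chosen after their values were seen. The share of the dominant ubl-1 transcript TCONS_00011521, a ubiquitin-like fusion with a ribosomal protein, was 86.2% to 89.8% after BPA and higher in every DMSO library, at up to 95.5%. The share of TCONS_00038656 of ife-3, a cap-binding translation initiation factor eIF4E, was 48.2% to 50.7% after BPA and 26.4% to 46.8% after DMSO. For TCONS_00000896 of vps-34, a phosphatidylinositol 3-kinase, the ranges were 88.4% to 92.4% and 49.5% to 88.1%. In each of these transcripts the shares of the water libraries overlapped with those of the BPA libraries.

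Between BPA and water, 0 of 1399 transcripts were called, beside 0.0% of all 4309. Unadjusted p-values were under 0.05 for 73 (5.22%) of the 1399 and 188 (4.36%) of all 4309, and the smallest adjusted p in limma was 0.631. Shares did not overlap for 27 transcripts in 23 genes, 1.93% beside 1.9% of all. That smallest adjusted p belonged to spd-5, the scaffold protein around centrioles from which mitotic centrosomes grow. Its TCONS_00003282 had 52.3, 125, 139 and 79.7 RPKM in BPA 1 to 4, 115, 114, 138 and 162 RPKM in DMSO 1 to 4, and 103, 141, 141.7 and 141.9 RPKM in water 1 to 4. As shares, these were 35.7% to 92.1% after BPA and 99.8% to 100% after water, with 81.9% to 100% after DMSO. Most of the remainder in the BPA libraries came from TCONS_00003281, at 47.4, 14.2, 0 and 55.5 RPKM, and TCONS_00003279, at 24.3, 0, 11.9 and 0 RPKM. The log2 ratio was lower by 5.34 ± 1.19 (SE) after BPA than after water. The summed spd-5 level was 136 to 151 RPKM after BPA and 102.8 to 141.95 RPKM after water.

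Y50D7A.8 had TCONS_00013581 at 7.64, 4.39, 11.6 and 6.06 RPKM in the BPA libraries, 8.83, 12.4, 11.7 and 7.58 RPKM in the DMSO libraries and 20.4, 12.4, 16.8 and 12.8 RPKM in the water libraries. Its share was 16.5% ± 6.20 after BPA, 22.8% ± 5.99 after DMSO and 36.5% ± 7.27 after water (SD, n = 4 each), with no overlap of either the BPA or the DMSO libraries with the water libraries (adjusted p = 0.930 for BPA against water in limma). dnj-25, a J-domain protein of clathrin uncoating, had TCONS_00042850 at 4.66, 19.8 and 16.0 RPKM in water 2 to 4 and at 0 in water 1 and all BPA and DMSO libraries. panl-3, a subunit of the poly(A) nuclease, had TCONS_00012887 at 8.56, 0.00905, 20.7 and 15.8 RPKM in water 1 to 4 and at no more than 0.0141 RPKM in the BPA and DMSO libraries. lin-45, the Raf kinase of germline MAP kinase signalling, had TCONS_00027530 at 60.2% to 80.5% after BPA and 49.0% to 55.9% after water. The DMSO libraries overlapped with both in the share of this transcript.

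Between DMSO and water, 0 of 1399 transcripts were called, beside 0.0% of all 4309. Unadjusted p-values were under 0.05 for 43 (3.07%) of the 1399 and 157 (3.64%) of all, and the smallest adjusted p in limma was 0.932. Shares did not overlap for 18 transcripts in 16 genes, 1.29% beside 1.72% of all. pak-2, a p21-activated kinase, had TCONS_00040851 at 16.4, 4.51, 8.71 and 7.58 RPKM in the DMSO libraries and 12.7, 16.7, 24.7 and 15.5 RPKM in the water libraries. In share these were 23.4% ± 10.9 after DMSO and 53.3% ± 7.98 after water, and 35.4% ± 7.92 after BPA (SD, n = 4 each), with all water libraries above all others. The log2 ratio was lower by 1.86 ± 0.474 (SE) after DMSO than after water. Y57A10A.1 had TCONS_00007703 at 98.1%, 77.2%, 99.8% and 100% in the DMSO libraries and 29.5%, 59.0%, 24.6% and 17.9% in the water libraries, with BPA 2 at 17.9% and the other BPA libraries at 76.1% to 98.6%. The 3 comparisons share libraries, so a transcript that stands apart in one exposure enters 2 of them.

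**Figure D5:**
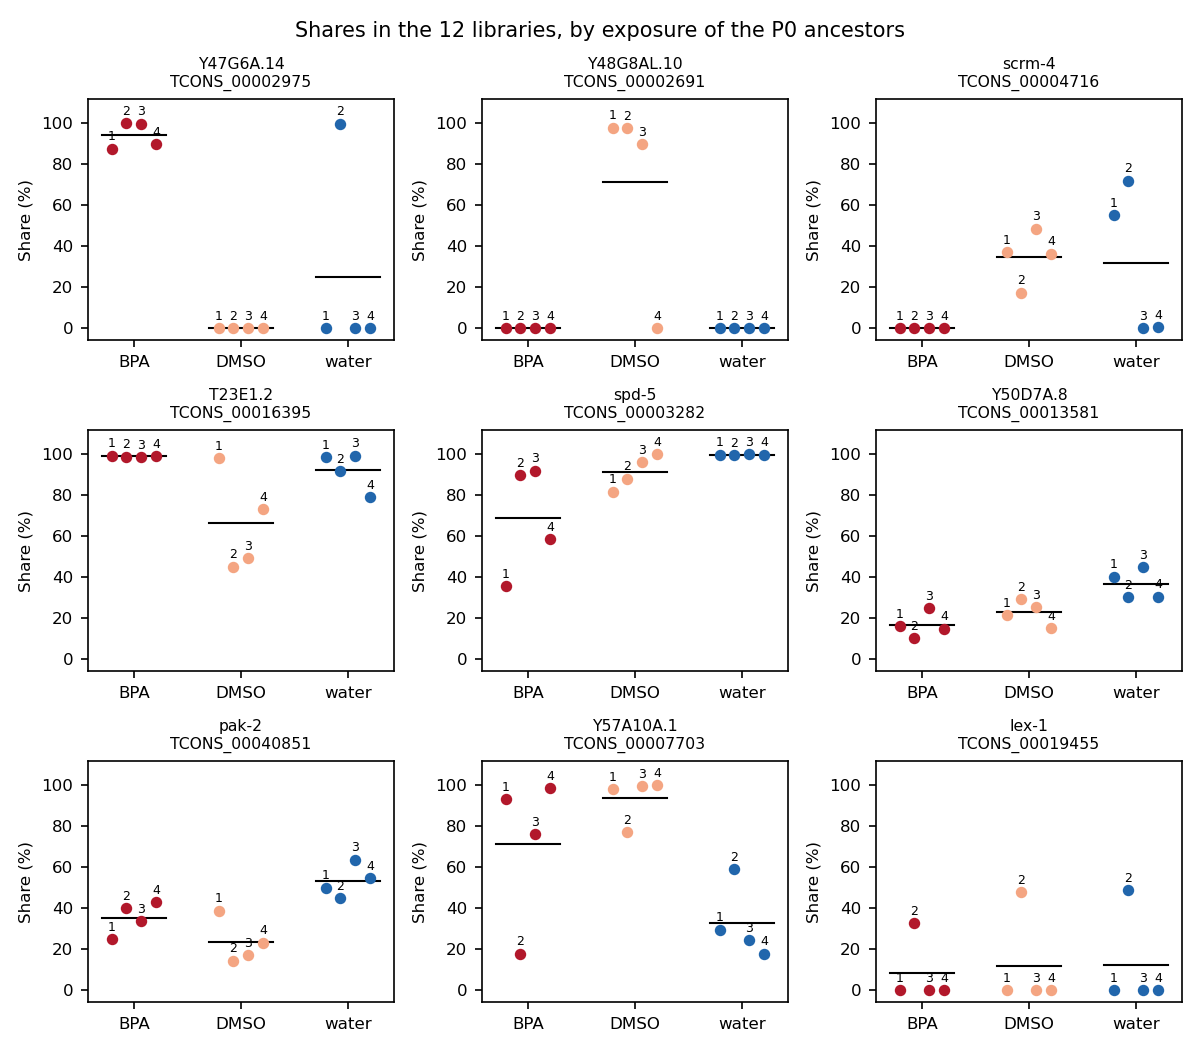
Share of a transcript in its gene (y axis, percent) in the BPA, DMSO and water libraries (x axis, numbered by sample) for 9 transcripts; horizontal bars are means of 4 libraries. TCONS_00002975 of Y47G6A.14 lies at 87.7% or more in the 4 BPA libraries and at 0% in the 4 DMSO libraries, but at 100% in water 2, and TCONS_00019455 of lex-1 is above 1% in sample 2 of each exposure alone.

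By group means, the leading transcript was the same after BPA, DMSO and water in 434 genes and differed in 118. zig-7, an immunoglobulin-domain protein, was led by TCONS_00000667 in BPA 1, 2 and 4 (508, 447 and 441 RPKM). It was led by TCONS_00000668 in DMSO 2 to 4 (1318, 539 and 703 RPKM), and also in BPA 3, water 1 and water 3. The summed zig-7 level differed as well, at 44.3 to 578 RPKM after BPA and 599 to 1530 RPKM after DMSO. The lowest value, 44.3 RPKM, was that of BPA 3, and the water libraries had 403 to 1752 RPKM. D1044.6 was led by TCONS_00014443 in DMSO 1 to 3, at 131, 87.1 and 150 RPKM, and that model had 6.79, 2.35, 163 and 0 RPKM in BPA 1 to 4. F21D5.1 had TCONS_00018691 at 108, 70.6, 0 and 71.5 RPKM in the BPA libraries, 71.3, 92.6, 0 and 0 RPKM in the DMSO libraries and 149, 134, 7.20 and 92.9 RPKM in the water libraries. In each exposure sample 3 had the lowest value, equalled by DMSO 4. No transcript of these genes was called in any exposure comparison.

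The libraries of each exposure are numbered 1 to 4, and the labels do not say what equal numbers share. In an F-test over the 4 numbers with exposure in the fit, 1 of the 1399 transcripts was called, beside 0.0696% of 4308 transcripts with a value. It was TCONS_00019455 of lex-1, a bromodomain ATPase (adjusted p = 0.0422 in limma). lex-1 TCONS_00019455 had 0, 29.5, 0 and 0 RPKM in BPA 1 to 4, 0, 34.8, 0.00408 and 0 RPKM in DMSO 1 to 4, and 0, 46.7, 0 and 0 RPKM in water 1 to 4. It was thus present at 32.8%, 48.0% and 49.0% of lex-1 in the libraries numbered 2 and nearly absent from the other 9. The dominant TCONS_00019458 had 48.8, 37.7 and 41.3 RPKM in those 3 libraries and 56.5 to 94.4 RPKM in the others, and the lex-1 sum was lowest in water 1, at 64.6 RPKM. Leaving out any 1 of the 12 libraries ended the lex-1 call (adjusted p 0.0539 to 0.427 in limma).

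With numbers 1 and 3 set against 2 and 4, 0 of the 1399 transcripts were called, beside 0.0% of 4308. Unadjusted p-values were under 0.05 for 63 (4.50%) of the 1399 and 210 (4.87%) of all. In Y77E11A.1, the libraries numbered 1 and 3 had 12.9 and 26.7 (BPA), 23.9 and 26.1 (DMSO), and 32.3 and 24.0 (water) RPKM of TCONS_00016173. Those numbered 2 and 4 had 13.2 and 7.22 (BPA), 22.0 and 9.45 (DMSO), and 11.3 and 14.3 (water) RPKM of it (log2 ratio higher by 3.32 ± 0.681 for numbers 1 and 3, SE; adjusted p = 0.559 in limma). apx-1, a Delta-type ligand of Notch, had TCONS_00035109 at 0.298, 0.195, 8.01, 0, 1.94 and 3.07 RPKM in the libraries numbered 1 and 3, in the order BPA, DMSO and water. In those numbered 2 and 4 it had 8.02, 7.88, 7.15, 7.85, 5.68 and 7.65 RPKM, so DMSO 1 was the exception (adjusted p = 0.687 in limma). mtk-1, a MAP kinase kinase kinase, had TCONS_00003435 at 30.5 to 49.3 RPKM in the libraries numbered 3 and 4 and at 11.5 to 21.2 RPKM in those numbered 1 and 2 (adjusted p = 0.875 for the F-test in limma).

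Summed levels of the genes were tested among 7570 genes. None of the 552 genes was called between BPA and DMSO, BPA and water, or DMSO and water (adjusted p under 0.05 in limma), beside 0.0264%, 0.0132% and 0.0132% of all genes tested. Unadjusted p-values were under 0.05 for 1, 16 and 7 of the 552 genes in these comparisons, 0.181%, 2.90% and 1.27% beside 0.872%, 2.71% and 1.70% of all genes tested. The summed levels of 4, 15 and 3 genes did not overlap in these comparisons, 0.725%, 2.72% and 0.543% of the 552 beside 1.08%, 2.02% and 0.885% of all genes tested. Of the 15 genes separate between BPA and water, 14 were higher after BPA. Directions were not counted over all genes tested, so nothing can be set beside that number. hel-1, an RNA helicase of splicing and mRNA export, had 279 to 303 RPKM after BPA and 221 to 250 RPKM after water. Its DMSO libraries, at 216 to 354 RPKM, spanned both ranges. F55A11.4 had 42.4 to 44.7 RPKM after BPA, 34.4 to 41.9 RPKM after DMSO and 30.7 to 40.9 RPKM after water (both genes chosen after their values were seen). The median log2 difference in level of the 552 genes was 0.02 for BPA against DMSO, 0.08 for BPA against water and 0.05 for DMSO against water, beside 0.02, -0.01 and -0.02 over all genes tested.

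A few genes had values that followed single libraries. rrn-1.1, an 18S ribosomal RNA gene with 13 models, had TCONS_00002535 at 87.0 to 3973 RPKM and was led by different models in different libraries. tbx-32, named for a T-box factor, and irld-23 had their highest levels in water 3, where TCONS_00043110 of tbx-32 had 4555 RPKM and TCONS_00049121 of irld-23 had 8385 RPKM. vit-6, a yolk protein made in the intestine, had TCONS_00018593 at 4.70 to 23.7 RPKM in the BPA libraries, 4.15 to 160 RPKM in the DMSO libraries and 7.02 to 46.9 RPKM in the water libraries. It is 1 of 6 intestinal markers, and the other 5 summed to 5.91 to 25.5 RPKM in the BPA libraries, 5.27 to 236 RPKM in the DMSO libraries and 7.99 to 54.6 RPKM in the water libraries. DMSO 3 was the highest in both, and the part of intestinal RNA in the vit-6 level was not tested.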

How the data were processed

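Per the labels' protocols, gonad RNA became cDNA with a low-input SMART-Seq kit, then Nextera XT libraries sequenced single-end at 50 bp. Per the file headers, the authors deposited RPKM per transcript in 11 tables and FPKM, the same quantity for such reads, in that of BPA 1. The tools HISAT and StringTie and the build ce10 are named per the submitters' processing notes, and their versions and the handling of strand are not given there. The tables hold no counts or lengths. The division of short reads among overlapping models is an estimate, and a 0 can be a failed one, hence "listed at 0".

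Shares were taken where a gene's sum reached 1 RPKM. Transcripts of at least 5% mean share in named genes with 2 or more models and at least 10 RPKM were tested with limma 3.58.1 in R 4.3.3 on log2((transcript + 1)/(rest + 1)) with a variance trend; with 2 models the ratios mirror each other. Levels were tested on log2(sum + 1) in genes with 1 RPKM in at least 4 libraries. Such log2 differences understate changes of low transcripts. Fits were tested on simulated data, and exact permutation tests were two-sided. Depth was estimated from the value of 1 read in genes with 1 model and 1 annotated transcript. Names, lengths, chromosomes and biotypes came from Ensembl release 115, of another build, so no coordinates are given. The closing section lists the alternatives.

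Genes, lists and tests were chosen with earlier results of these data known. Named genes are those called or with the 5 smallest p in a test, the 8 highest, the 8 most and 8 least variable in dominant share, 8 with different leaders between exposures, 4 of each list by level and those at the level limit; any others are marked.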

Additional observations from a re-analysis of the deposited data

Results flagged for a closer look

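Shares of the dominant transcript of 26 named genes, and 3 summaries of the libraries, were examined in each exposure for a library far from the other 3. The cut used gives about 1 in 20 for independent, normally distributed values. Here 78 of 87 groups were bounded shares of genes picked by p-value or level, so that rate does not apply to them. Of the 87 groups 16 had a library set apart. In BPA libraries these were BPA 4 for scrm-4 (24.7% for TCONS_00004719), BPA 3 for F56A6.4 (96.3%) and BPA 3 for tbx-32 (47.7%). In DMSO libraries they were DMSO 4 for Y47G6A.14 (99.96%), Y48G8AL.10 (84.3%) and rrn-1.1 (19.01%), DMSO 3 for F56A6.4 (63.5%), apx-1 (0%) and cpg-1 (84.4%), DMSO 2 for panl-3 (80.2%) and Y57A10A.1 (77.2%), and DMSO 1 for tbx-32 (36.8%). In water libraries they were water 1 for Y48G8AL.10 (0%), C56A3.6 (0%) and eef-1G (97.2%), and water 3 for Y37D8A.2 (0%). The gap to the nearest library of the same exposure was under 5 percentage points for F56A6.4 in BPA 3, Y47G6A.14 in DMSO 4, cpg-1 in DMSO 3, tbx-32 in DMSO 1 and eef-1G in water 1.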

How the results depend on the processing

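Calls were few under every setting. Fitted with the compared groups alone, 5 transcripts were called for BPA against DMSO (3 in the 552 genes: both Y47G6A.14 transcripts and TCONS_00004716 of scrm-4). For BPA against water 4 were called and for DMSO against water 2, none of them in the 552 genes. With sample numbers 2 and 4 alone the calls were 9, 4 and 9, none of them in the 552 genes, and with 1 and 3 alone 0. With the replicate block the calls were 0 for BPA against DMSO, 2 for BPA against water and 1 for DMSO against water, none in the 552 genes. Same-number correlations ran from -0.0478 to 0.0297, so the block has no basis in a pairing seen here. BPA 1 correlated best with DMSO 1, and every other best match had a different number. For summed levels, the block gave 1 call for BPA against DMSO and 0 for BPA against water, against 2 and 1, and a pseudocount of 0.1 gave 1 for BPA against DMSO, none of them in the 552 genes. Without water 1 and water 3, chosen after seeing the data, 1, 6 and 7 transcripts were called (1, 1 and 2 in the 552 genes) for BPA against DMSO, BPA against water and DMSO against water.

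Leaving out 1 library at a time gave 0 to 3, 0 to 6 and 0 to 3 calls in these comparisons, and 0 to 1, 0 to 3 and 0 to 1 in the 552 genes. Without water 2 these were Y47G6A.14, panl-3 and rbg-2, without DMSO 4 Y48G8AL.10, and without water 1 dnj-25. For summed levels the ranges were 2 to 3, 1 to 2 and 1 to 2, with 0 in the 552 genes.

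By sample number, 3 transcripts were called. A pseudocount of 0.1, the arcsine scale and single-name genes alone gave 0 (0 in the 552 genes), a share limit of 20% gave 1 (0), no exposure term gave 6, and leaving out a library gave 0 to 4 (0 to 2). For numbers 1 and 3 against 2 and 4, a level limit of 50 RPKM gave 3 calls, no share limit 1, no variance trend 1 and no exposure term 4, with lex-1 as the 1 gene of the 552 in each, and leaving out a library gave 0 to 4 (0 to 1). The causes were not tested.

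Leaving out a library kept the median dominant share between 71.5% and 73.0%, genes led throughout between 36.4% and 40.6%, and those with the wide range between 23.9% and 26.4%. Shares from RPKM times length were not run, because the tables hold no lengths. With half-widths of 2.40 on the log2 scale, a typical transcript's ratio had to differ by about that much between exposures before its interval left 0; whether the half-widths follow depth was not tested.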
